A study of Mus musculus with 6 samples.

Results

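The Hippo pathway effectors described here are 10 genes of the mouse array, Yap1, Wwtr1, Tead1, Tead2, Tead3, Tead4, Lats1, Lats2, Amotl2 and Vgll3, out of 36163 gene names. They were taken by name, every probe that the array design gives to one of them, which made 14 of 55681 probes. Their RNA was measured in basal prostate epithelial cells that do (LSC GFP+) or do not (LSC GFP-) express GFP from the s-SHIP promoter, with 3 independent samples for each population. No member differed between the populations at an unadjusted p under 0.05, the threshold used throughout by limma, which called 7.9% of the 37008 probes tested. That fit did not pair the samples. With the replicate number of the titles as a block, limma called 1 member, Tead4 (unadjusted p = 0.0469), and 14.8% of all probes. Of 20 tested genes known as YAP/TAZ targets 8 were called, 5 higher and 3 lower in LSC GFP+ cells. That list was chosen with earlier results of these data known. Of the lower genes, Nt5e and Foxf2 were well above background throughout LSC GFP- cells only. Whether targets and members differ in their calls was not tested.

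All 6 samples came from prostates of 6-day-old male FVB/N mice carrying the Tg 11.5kb-GFP transgene, in which a stretch of the s-SHIP promoter drives GFP, so that the LSC GFP- cells carry the transgene as well. Animals were not treated. LSC cells are those without the lineage markers Ter119, CD31 and CD45 and with Sca-1 and CD49f on the surface, and the sort parted them by GFP. How many animals made up a sample is not given in the sources used here. The amplified, Cy3-labelled material of each sample was hybridised to its own 1-colour array. All values below are log2 signals relative to the 75th percentile of the same array, so that 75% of the probe spots of an array lie below 0, and values of different probes cannot be set against each other.

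Hippo signalling is a kinase cascade that restrains organ growth and responds to cell contact, polarity and tension. The kinases Stk3 and Stk4, with Sav1, activate Lats1 and Lats2, with their Mob1 partners, and these phosphorylate the co-activators YAP (Yap1) and TAZ (Wwtr1), which are then held in the cytoplasm or degraded. Unphosphorylated YAP and TAZ enter the nucleus and bind the TEAD transcription factors, and basal cells of many stratified or bilayered epithelia are known for nuclear YAP. Much of this control acts on the proteins, so RNA levels of the effectors are only one layer of it.

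Between 36657 and 42127 probes were well above background on an array, and no spot was saturated. Epcam and Trp63, defining genes of epithelial and basal cells, were well above background on every array. As LSC GFP+ minus LSC GFP-, Epcam differed by -0.03. The 3 tested probes of Trp63 disagreed, with 0.11 at the brightest, 0.62 without overlap at the next (unadjusted p = 0.0124) and -0.73 at the third (unadjusted p = 0.0743). Itga6, which encodes CD49f, differed by 0.25 (95% interval -0.25 to 0.75), and Ly6a, which encodes Sca-1, by -0.36 (-1.43 to 0.71). Krt5 and Krt14, keratins of basal cells, were higher in LSC GFP+ cells by 0.70 and 1.18, with 5 of 8 basal markers past the threshold, all higher. All 8 smooth muscle markers had the lower mean in LSC GFP+ cells, 7 of them past the threshold, and their summed level, in multiples of the 75th percentile of the array, lay between 6.96 and 10.6 against 20.7 to 39.5 in LSC GFP- cells. Of the 4 neural markers tested none passed, but with the replicate number as a block Tubb3 (-1.30, unadjusted p = 0.00117) and Sox10 (-0.66, unadjusted p = 0.0257) did, both lower in LSC GFP+ cells. The fit with the block called 14.8% of all probes, and the one without it 7.9%. These are bulk samples, in which fewer cells of a type and less RNA per cell cannot be told apart.

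Yap1 encodes YAP, a transcriptional co-activator that does not bind DNA by itself. Its probe (chr9:7932025-7932084, minus strand, mm9) gave -0.25, -0.06 and -0.28 in LSC GFP+ replicates 1, 2 and 3 and -0.41, -0.49 and -0.28 in the LSC GFP- samples. The LSC GFP+ samples lay above the LSC GFP- samples, although the lowest of the first and the highest of the second were only 0.003 apart. The means were -0.20 ± 0.12 and -0.40 ± 0.11 (SD, n = 3 each), a difference of 0.20 (SE 0.19, 95% interval -0.23 to 0.63), and limma gave an unadjusted p = 0.319 and an adjusted p = 0.987.

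Wwtr1 encodes TAZ, the paralog of YAP. Its probe (chr3:57259999-57260058, minus strand, mm9) gave -1.02, -0.92 and -0.68 in LSC GFP+ cells against -0.68, -0.46 and -0.51 in LSC GFP- cells. Here the order was the other way, with every LSC GFP+ sample below every LSC GFP- sample by at least 0.004. The difference was -0.32 (SE 0.19, 95% interval -0.77 to 0.12), and its unadjusted p = 0.133 was the lowest of all members by limma (adjusted p = 0.83).

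**Figure D1:**
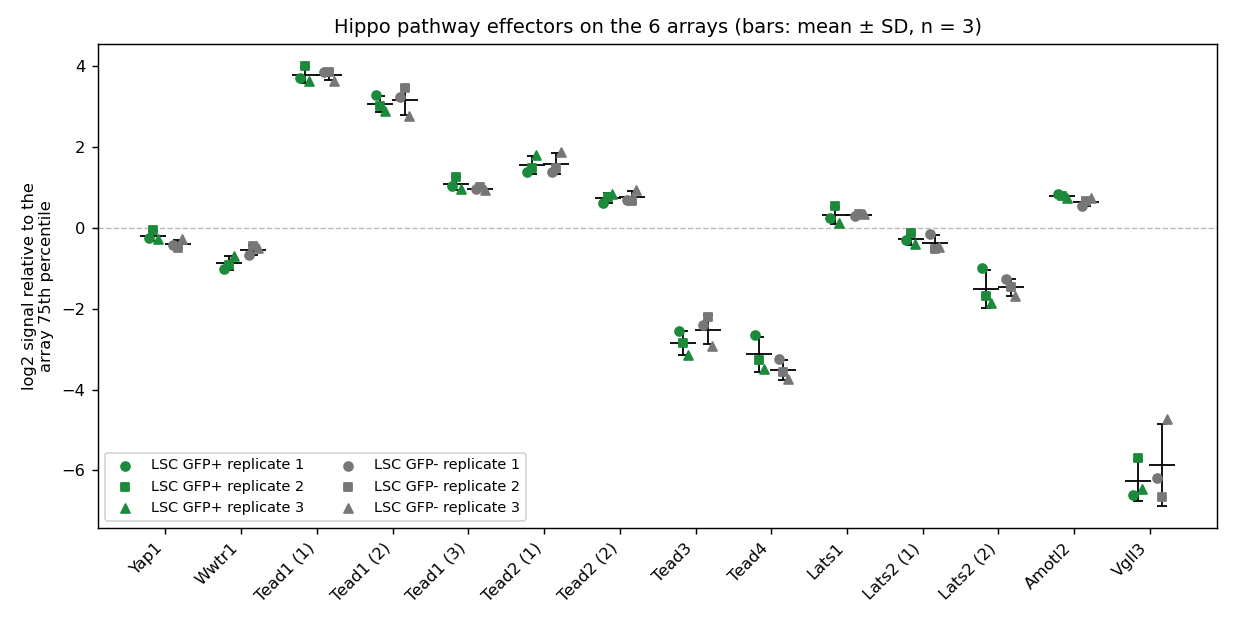
Log2 signal of each member probe relative to the 75th percentile of its array, with green symbols for LSC GFP+ and grey symbols for LSC GFP- samples (circle, square and triangle for replicates 1, 2 and 3) and bars for mean ± SD (n = 3). Samples of the populations interleave at most probes, and Vgll3 was nowhere well above background.

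TEAD1 to TEAD4 are the DNA-binding partners through which YAP and TAZ reach their target genes. Tead1 had 3 probes within 1 stretch of the transcript (the first at chr7:120049844-120049903, plus strand, mm9), all well above background on all 6 arrays. At the brightest of them the LSC GFP+ samples gave 3.71, 4.01 and 3.62 and the LSC GFP- samples 3.85, 3.86 and 3.64, which overlap fully. The differences at the 3 probes were -0.01 (95% interval -0.47 to 0.46), -0.09 (-0.65 to 0.48) and 0.12 (-0.31 to 0.55), so that the probes did not share a direction.

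Tead2 had 2 probes (the first at chr7:52488742-52488801, plus strand, mm9). The brighter one gave 1.39, 1.49 and 1.81 in LSC GFP+ and 1.39, 1.48 and 1.88 in LSC GFP- replicates 1 to 3. Samples that share a replicate number thus had nearly the same level, and the replicate 3 samples were the highest in both populations. The differences at the 2 probes were -0.02 (95% interval -0.54 to 0.50) and -0.03 (-0.46 to 0.41).

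Tead3 (chr17:28468622-28468681, minus strand, mm9) gave -2.55, -2.85 and -3.15 in LSC GFP+ and -2.41, -2.21 and -2.92 in LSC GFP- cells and was well above background on every array. It was lower in LSC GFP+ cells in 3 of 3 replicate pairs, but the ranges overlapped. The difference was -0.33 (SE 0.26, 95% interval -0.94 to 0.27, unadjusted p = 0.238).

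Tead4 (chr6:128177161-128177220, minus strand, mm9) gave -2.64, -3.26 and -3.50 in LSC GFP+ and -3.24, -3.57 and -3.73 in LSC GFP- cells. The difference was 0.38 (SE 0.27, 95% interval -0.25 to 1.01), with overlapping ranges and an unadjusted p = 0.199 (adjusted p = 0.908). It was 0.14 without LSC GFP+ replicate 1 and 0.03 with another background correction (normexp). The offset added there shrinks the differences of dim probes such as this one. Each LSC GFP+ sample lay above the LSC GFP- sample of the same replicate number, and with the replicate number as a block Tead4 reached an unadjusted p = 0.0469. That fit called 14.8% of all probes, 5479 in place of 2925, and is the one setting in which a member was called.

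**Figure D2:**
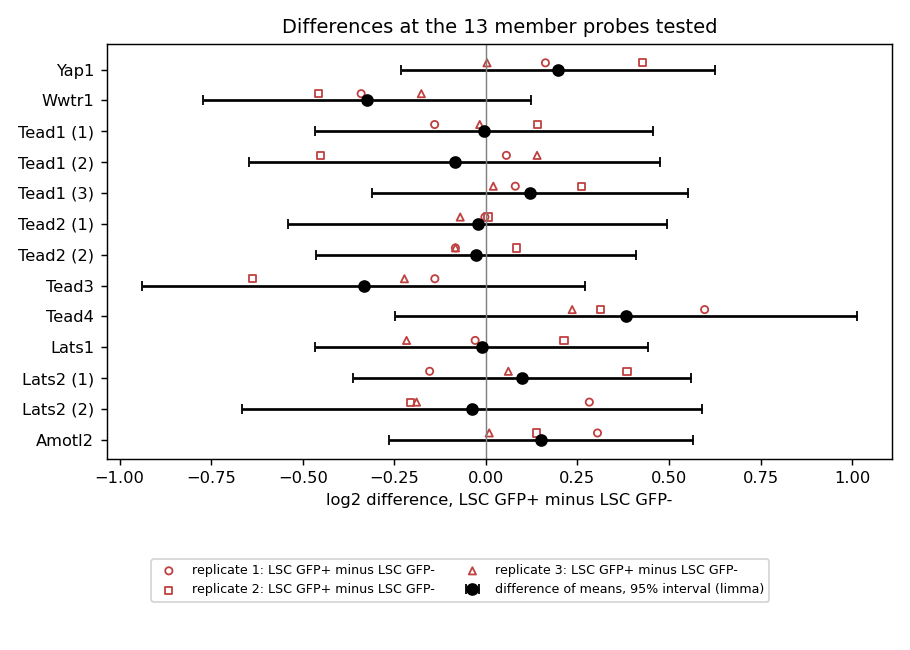
Log2 difference, LSC GFP+ minus LSC GFP-, at the 13 tested member probes, with the limma 95% interval (black) and the difference within each replicate pair (red open symbols). Every interval includes 0, and Tead4 reaches farthest, to 1.01.

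LATS1 and LATS2 are the kinases that inactivate YAP and TAZ. Lats1 (chr10:7432671-7432730, plus strand, mm9) gave 0.25, 0.55 and 0.12 in LSC GFP+ and 0.28, 0.34 and 0.33 in LSC GFP- cells. The 3 LSC GFP- samples were close together, and the LSC GFP+ samples lay on both sides of them. The difference was -0.01 (95% interval -0.47 to 0.44).

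Lats2, itself a known target of YAP and TEAD, had a probe for each of 2 transcripts. The probe at chr14:58308807-58308866 (minus strand, mm9) gave -0.31, -0.13 and -0.40 against -0.16, -0.52 and -0.46, a difference of 0.10 (95% interval -0.36 to 0.56). The one at chr14:58341225-58341284 gave -0.98, -1.68 and -1.86 against -1.27, -1.47 and -1.67, a difference of -0.04 (-0.66 to 0.59). Samples of the populations were mixed at both.

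Amotl2, an angiomotin family protein that binds YAP and TAZ at cell junctions and is also a known YAP target, gave 0.84, 0.80 and 0.74 in LSC GFP+ and 0.54, 0.66 and 0.73 in LSC GFP- cells (chr9:102635025-102635084, plus strand, mm9). The LSC GFP+ samples were all higher, the closest by 0.009. The difference was 0.15 (SE 0.18, 95% interval -0.26 to 0.57), with an unadjusted p = 0.427.

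Vgll3 encodes a vestigial-like cofactor that binds TEAD proteins in place of YAP. Its probe (chr16:65862151-65862210, plus strand, mm9) was not well above background on any of the 6 arrays and was not tested. Its signals, -6.61, -5.68 and -6.46 in LSC GFP+ and -6.20, -6.67 and -4.74 in LSC GFP- cells, therefore give no order of the populations.

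Of the 14 member probes, 13 were tested, covering 9 genes. At an unadjusted p under 0.05 limma called 0 of the 13, where it called 7.9% of the 37008 probes tested, 3.38% higher and 4.53% lower in LSC GFP+ cells, and 1 of all probes passed after Benjamini-Hochberg adjustment (0.0027%). The lower share of these calls was 57.3%, and 46.9% with arrays scaled by their medians. The lowest adjusted p of a member was 0.83. At the brightest probe 4 of the 9 genes had the higher mean in LSC GFP+ cells and 5 the lower, with a median difference of -0.01 and a median size of 0.15, against 0.18 over all probes tested. The populations did not overlap at 3 member probes, 2 with LSC GFP+ cells higher (Yap1 and Amotl2) and 1 with them lower (Wwtr1). Of all probes 12.3% did not overlap, 6.61% with LSC GFP+ cells higher and 5.65% with them lower. With arrays scaled by their medians none of the 3 stayed apart. The 95% intervals reach at most 1.01, which is 2.02-fold. For a single probe an exact two-sided permutation test of 3 against 3 samples cannot give a p under 0.1. The limma p values rest on a model. They weigh a difference of means against the spread within the populations, moderated by that of all probes tested.

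The 18 upstream genes, all tested, cover the core kinases and their activators. The core kinases Stk3 and Stk4 differed by 0.20 and 0.15, their scaffold Sav1 by 0.03, and the LATS partners Mob1a and Mob1b by 0.15 and 0.28, none past the threshold. Wwc2, a relative of the KIBRA scaffold that promotes LATS activation, was the 1 gene of the 18 called (5.56%, against 7.9% of all probes). It gave 0.01, 0.27 and -0.26 in LSC GFP+ against 0.61, 0.70 and 0.37 in LSC GFP- cells, a difference of -0.55 (SE 0.22, unadjusted p = 0.0348, adjusted p = 0.555). The populations did not overlap at Wwc2, but the call ended when any one of LSC GFP+ replicates 1 and 3 or LSC GFP- replicates 1 and 2 was left out. It also ended with median scaling (-0.49) and without the filter on dim probes (limma unadjusted p = 0.0503). With the replicate block, which called 14.8% of all probes, a second gene, Wwc1 (KIBRA), at -0.42, passed as well. Fat4, an atypical cadherin upstream of the pathway, differed by -0.42 (95% interval -1.31 to 0.46), and LSC GFP- replicate 1 stood apart at 0.86 from -0.36 and -0.63 in the other two.

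Of 12 genes that bind or regulate YAP, TAZ, LATS or TEAD, 11 were tested, and 3 were higher in LSC GFP+ cells, where 3.38% of all probes were. This list was chosen with earlier results of these data known, so its share is a description only. Ajuba (Jub on the array), a LIM protein that restrains LATS kinases, gave -0.05, 0.80 and 0.14 in LSC GFP+ against -0.62, -0.44 and -0.46 in LSC GFP- cells. Its difference was 0.80 (SE 0.26, unadjusted p = 0.0145, adjusted p = 0.4), and its populations did not overlap. Ptpn14, a phosphatase that holds YAP in the cytoplasm and is also counted among YAP targets, gave 2.74, 2.75 and 2.15 against 2.02, 1.80 and 1.63. That is a difference of 0.73 (SE 0.24, unadjusted p = 0.0159, adjusted p = 0.411), without overlap. Vgll4, which competes with YAP for TEAD, gave 1.23, 1.25 and 1.30 against 0.65, 0.73 and 0.93, a difference of 0.49 (SE 0.18, unadjusted p = 0.0288, adjusted p = 0.514). Proteins that favour YAP and proteins that oppose it were thus both among the higher genes. Over the 29 tested upstream and regulator genes the median difference was 0.14, with the mean higher in 18 and lower in 11, and it lay between 0.03 and 0.20 with 1 array left out, lowest without LSC GFP- replicate 1 and nearly as low without LSC GFP+ replicate 2. Without LSC GFP- replicate 1, Ptpn14 alone of these 4 genes kept its call. The call of Ptpn14 ended without LSC GFP+ replicate 2 or LSC GFP- replicate 3, and that of Vgll4 without LSC GFP+ replicate 2 or 3 or LSC GFP- replicate 2.

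**Figure D3:**
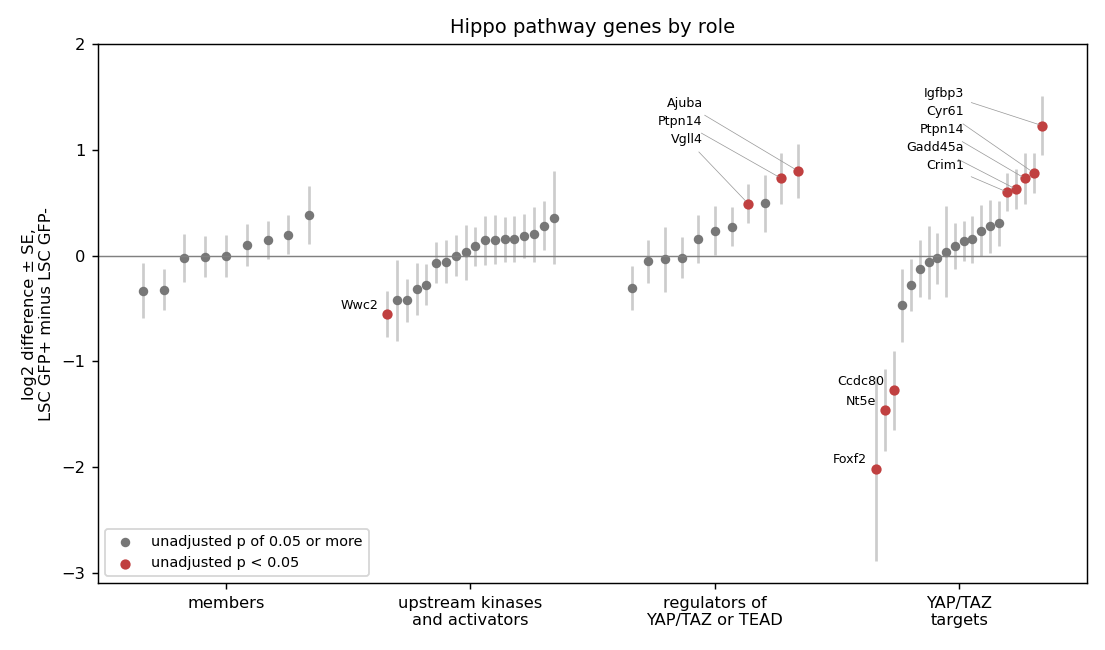
Log2 difference ± SE, LSC GFP+ minus LSC GFP-, at the brightest tested probe of each gene, ordered by size within members, upstream genes, regulators and YAP/TAZ targets, with genes at an unadjusted limma p under 0.05 in red and named. No member is red, and of the lowest targets Nt5e was well above background on 0 and Foxf2 on 1 of the 3 LSC GFP+ arrays.

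YAP/TAZ target genes are the usual transcriptional readout of the pathway. Of 22 such genes 20 were tested, and 8, Ptpn14 included, passed the threshold (40% of those tested against 7.9% of all probes), none after adjustment over all probes. The list was chosen with earlier results of these data known. The 40% also counts the brightest probe of each gene and the 7.9% every tested probe. The shares are therefore a description and no test of the targets. With 5 higher and 3 lower genes they did not share a direction. Of the lower genes, Nt5e and Foxf2 were tested only because their LSC GFP- signals met the filter on dim probes. A stricter filter, which asked for a clear signal on every array, left 18 targets, 5 called higher and 1, Ccdc80, lower. The median difference of the 20 was 0.11, and 0.23 without LSC GFP+ replicate 1 and 0.06 with normexp.

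Of the 3 most widely used readouts, Cyr61 was called, Ctgf was not and Ankrd1 was too dim to test, and the difference between Cyr61 and Ctgf was not tested. Cyr61 (Ccn1), a secreted matricellular protein, gave 3.41, 3.25 and 3.54 in LSC GFP+ against 2.73, 2.50 and 2.62 in LSC GFP- cells. Its difference was 0.78 (SE 0.19, 95% interval 0.34 to 1.22, unadjusted p = 0.00354, adjusted p = 0.228), 1.72-fold, and the call held in all 17 alternative settings. Ctgf (Ccn2), of the same protein family, gave -0.47, 0.08 and -0.37 against 0.10, -0.35 and -0.43. Its populations overlapped, with a difference of -0.03 (95% interval -0.59 to 0.54, unadjusted p = 0.919). Ankrd1, a nuclear ankyrin-repeat protein, was well above background on 1 array of 6, LSC GFP+ replicate 2 at -3.55, and was not tested, nor was Areg.

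Igfbp3, which binds insulin-like growth factors, had the largest increase among the targets. It gave -0.64, -0.62 and -0.46 in LSC GFP+ against -1.27, -2.30 and -1.84 in LSC GFP- cells, a difference of 1.23 (SE 0.28, unadjusted p = 0.00232, adjusted p = 0.192), 2.34-fold, and was called in all 17 settings. Gadd45a, a stress and DNA damage response gene, gave 3.09, 3.06 and 3.00 against 2.58, 2.22 and 2.47, 0.63 higher (unadjusted p = 0.0112). Crim1, a transmembrane protein that binds BMPs, gave -2.62, -2.76 and -2.62 against -3.23, -3.38 and -3.19, 0.60 higher (unadjusted p = 0.0112). Neither Gadd45a nor Crim1 overlapped between the populations. Without LSC GFP- replicate 2 both calls ended, at 0.53 and 0.54. With normexp, whose offset shrinks the differences of dim probes, the difference of Crim1 was 0.11, no longer called.

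The lower targets were Ccdc80, Nt5e and Foxf2. Ccdc80, a secreted matrix-binding protein, gave -2.31, -1.15 and -0.86 in LSC GFP+ against -0.36, -0.21 and 0.08 in LSC GFP- cells, a difference of -1.28 (SE 0.37, unadjusted p = 0.00917, adjusted p = 0.335), and -0.84 without LSC GFP+ replicate 1. Nt5e, the ecto-nucleotidase CD73, gave -3.02, -4.34 and -3.59 in LSC GFP- cells and was not well above background on any LSC GFP+ array. Its fitted difference was -1.46 (limma unadjusted p = 0.00548). With the LSC GFP+ signals raised to the dimmest probes well above background, Nt5e was 1.90-fold lower there. Probes not well above background can lie above those, so neither value gives a firm size. Foxf2, a forkhead factor of mesenchymal cells, gave -2.91, -5.15 and -6.38 against -1.76, -3.93 and -2.69, overlapping, with LSC GFP+ replicate 1 the one array of its population where it was well above background. The fitted difference of -2.02 (SE 0.87, unadjusted p = 0.0492) therefore sets signals not well above background on 2 arrays against measured ones and has no firm size. It ranged from -2.97 to -1.23 with 1 array left out and lost its call in 9 of 16 alternative settings, among them those without LSC GFP- replicate 1 or 3 or LSC GFP+ replicate 2 or 3. With normexp, whose offset shrinks the differences of dim probes, Nt5e differed by -0.49 and Foxf2 by -0.68. Smooth muscle and stromal markers moved the same way as these 3 genes, with differences of -2.13 at Acta2 and -2.18 at Col1a1. Of 8 stromal markers 5 passed the threshold as lower and 2, Dcn and Fbln1, as higher, Vim was at -0.80 without passing, and the summed level of the list was 24.4 to 31.3 in LSC GFP+ and 23.9 to 62.9 in LSC GFP- cells. No tested endothelial or leukocyte marker passed the threshold, with differences of -0.55 at Pecam1 and -0.05 at Ptprc. Only 4 of 7 endothelial markers were tested. At Pecam1 LSC GFP- replicate 3 stood apart at -1.07, against -3.30 and -3.35 in replicates 1 and 2. That sample was also the highest at Cldn5 (-1.75), which was tested, and at Cdh5 (-2.24), Tie1 (-2.47) and Emcn (-3.18), which were not. It was the highest at the dimmer Kdr probe (-2.51, not tested) as well, but not at the brightest probes of Kdr and Tek. The part of other cell types in the lower targets was not tested.

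**Figure D4:**
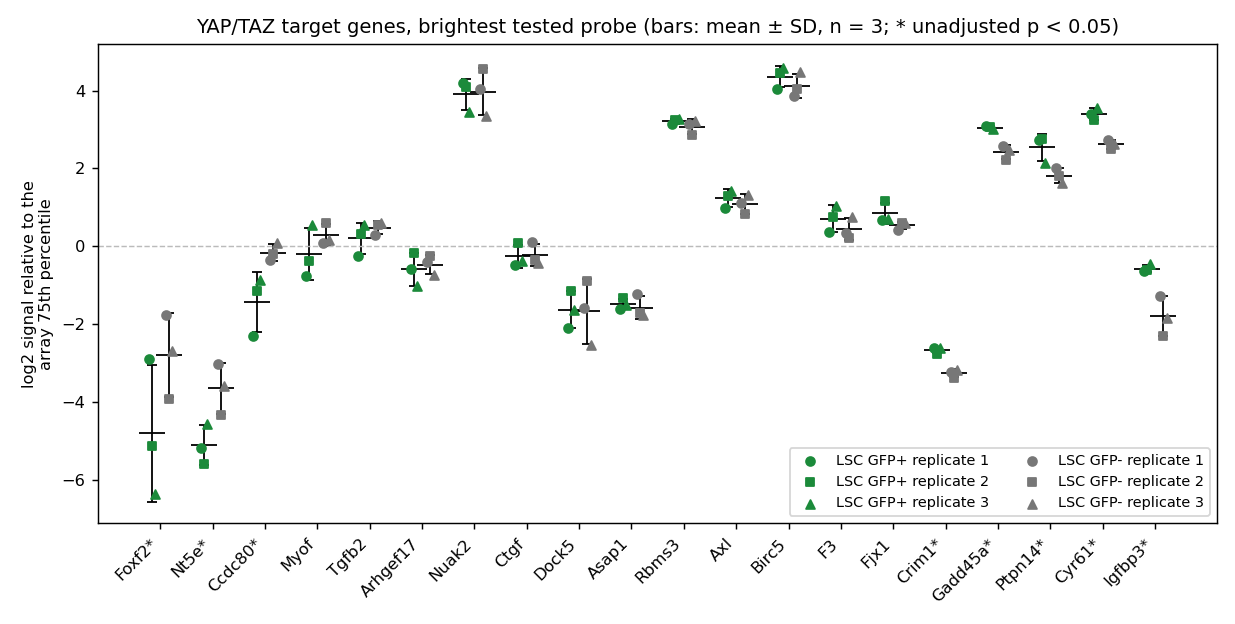
Log2 signal relative to the 75th percentile of the array for the 20 tested YAP/TAZ targets, ordered by their difference, with symbols as in the plot of the members. At Cyr61 and Igfbp3 the LSC GFP+ samples all lie above the LSC GFP- samples, at Ccdc80 and Nt5e all below, and at Ctgf they interleave, and Nt5e in LSC GFP+ samples is not well above background.

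TEAD proteins bind the sequence GGAATG, read as CATTCC on the other strand. The 250 bases before each annotated start in RefSeq (GRCm38.p6) were searched for these 6 letters on both strands, which 12.6% of 32851 windows and 14.4% of 27025 genes held. Windows were given for 8 of the 10 members, and those of 5, Yap1, Wwtr1, Tead3, Amotl2 and Vgll3, held a match, while Tead2, Lats1 and Lats2 held none. Of the 15 targets with a window 5 held a match (33.3%), Cyr61, Crim1 and Ptpn14 among the called genes and Axl and Ankrd1 among the others, while Igfbp3, Gadd45a, Nt5e and Foxf2, all called, held none. Of the other called genes Vgll4 held 1 match, Ajuba a pair and Wwc2, which was lower in LSC GFP+ cells, 3. Over their whole lists 6 of 10 regulators and 3 of 15 upstream genes with a window held a match, uncalled genes among them. Ctgf had no window. A match is a description of letters and does not show binding.

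The windows of Amotl2, a member that was not called, and Cyr61, a called target, are shown whole. At both the LSC GFP+ samples lay higher, but at Amotl2 the populations overlapped with arrays scaled by their medians. Those of Yap1, Wwtr1, Crim1, Ptpn14 and Ajuba are shown by the match with 30 bases on either side, to set the co-activators beside the called genes. All run 5′ to 3′ in the direction of the gene, with the match in capitals. They lie at chr9:102717554-102717803, plus strand (Amotl2), chr3:145649986-145650235, minus strand (Cyr61), chr9:8004702-8004767, minus strand (Yap1), chr3:57576011-57576076, minus strand (Wwtr1), chr17:78200139-78200204, plus strand (Crim1), chr1:189728092-189728157, plus strand (Ptpn14) and chr14:54577790-54577877, minus strand (Ajuba).
Amotl2: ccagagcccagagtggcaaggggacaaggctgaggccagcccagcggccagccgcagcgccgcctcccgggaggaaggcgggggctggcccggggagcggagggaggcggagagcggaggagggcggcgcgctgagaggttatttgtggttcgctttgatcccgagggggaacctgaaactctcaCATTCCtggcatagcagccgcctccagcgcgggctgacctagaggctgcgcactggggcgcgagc
Cyr61: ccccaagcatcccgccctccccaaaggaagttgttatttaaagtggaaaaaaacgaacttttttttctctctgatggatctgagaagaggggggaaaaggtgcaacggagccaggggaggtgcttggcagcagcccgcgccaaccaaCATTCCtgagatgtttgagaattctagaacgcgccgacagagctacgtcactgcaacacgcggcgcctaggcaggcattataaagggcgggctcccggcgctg
Yap1: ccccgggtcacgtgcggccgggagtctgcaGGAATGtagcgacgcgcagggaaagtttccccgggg
Wwtr1: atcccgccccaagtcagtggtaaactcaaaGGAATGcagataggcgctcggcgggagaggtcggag
Crim1: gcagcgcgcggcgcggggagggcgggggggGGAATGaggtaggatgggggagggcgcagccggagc
Ptpn14: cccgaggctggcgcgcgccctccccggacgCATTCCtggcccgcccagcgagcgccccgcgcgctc
Ajuba: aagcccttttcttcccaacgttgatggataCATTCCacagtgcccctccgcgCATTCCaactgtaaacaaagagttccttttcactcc
The match began 65 bases before the start in Amotl2 and 103 in Cyr61, and 141, 136, 79 and 146 bases before it in Yap1, Wwtr1, Crim1 and Ptpn14. In Ajuba the matches began 186 and 164 bases before the start. Genes whose populations differed and genes whose did not thus both carried these letters.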

How the data were processed

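RNA of 3 LSC GFP+ and 3 LSC GFP- samples was measured on 6 SurePrint G3 Mouse arrays, which shared 1 slide and 1 scan. Samples were grouped by their titles. Per the file headers, the authors extracted the intensity values with Agilent Feature Extraction 11.0.1.1 (the submitters' processing notes list 10.7.3.1), which removed background and a spatial trend and did not normalize between arrays. The software gives dim spots a substitute value, which compresses their differences. The deposited series table holds the same intensity values rounded to 3 significant digits. The deposited flags for background, saturation and outliers were used as other values.

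Log2 processed signals were taken relative to each array's 75th percentile. Outlier spots, 123 to 154 per array, were left out and spots of a probe averaged. Tested probes were well above background throughout 1 population or both, and a gene was represented by its brightest tested probe. Populations were compared with limma 3.58.1 in R 4.3.3 (lmFit and eBayes, two-sided, no block). Calls used the unadjusted p under 0.05 that the paper names, with Benjamini-Hochberg values over 37008 probes beside it. The script was tested on simulated data. For a probe dim throughout a population, signals below each array's dimmest probe well above background were raised to it for the fold. That fold is not a strict bound. Precision is limited by the number of arrays.

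Deviations of samples with the same replicate number correlated at 0.43, 0.28 and 0.67, and those with unlike numbers at -0.55 to 0.22. The numbers in the titles were therefore taken to pair the samples, and a blocked fit on that number was an alternative. The main fit leaves this pairing out, and its p values, intervals and calls are those given unless the block is named. The others were normexp (offset 50), quantile and median scaling, the series table, 3 filters, the methods' t-test, an intensity trend, probe means and leaving out each array. The offset is added to every signal before the log, which shrinks the differences of dim probes.

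The 10 members, the 18 upstream, 12 regulator and 22 target genes and the marker lists (the luminal list is not reported here) were chosen with earlier results of these data known. The text names every member, each list gene past the threshold, Ctgf, Cyr61, Ankrd1 and fixed markers. Stk3, Stk4, Sav1, Mob1a, Mob1b, Fat4, Wwc1, Areg, Axl, Dcn, Fbln1, Vim, Cdh5, Tie1, Cldn5, Emcn, Kdr, Tek, Tubb3 and Sox10 were named after their values were seen. Probe positions are mm9, as in the file headers, and no exon or UTR annotation of that build was used here. All 14 member probes matched their gene in RefSeq by accession.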

Additional observations from a re-analysis of the deposited data

How the results depend on the processing

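No member was called in any alternative except the fit with the replicate block, which called 1 member (Tead4, 0.38, unadjusted p = 0.0469) and 5479 of all probes in place of 2925. Yap1, Wwtr1, Tead3, Tead4, Lats2 and Amotl2 kept their direction in all 17 alternatives. Differences near 0 changed sign. With normexp Tead1 was 0.0238, Tead2 0.0007, Lats1 0.0168 and Tead4 0.0303, and the median of the upstream and regulator genes moved to -0.0085. With median scaling, which moved the median of all probes from -0.0043 to 0.0647, Tead1 was 0.0638, Tead2 0.0468, Lats1 0.058 and Ctgf 0.0436. With probe means Tead1 was 0.0101. With 1 array left out, Tead1 ranged from -0.1183 to 0.0731, Tead2 from -0.1467 to 0.1262, Lats1 from -0.1328 to 0.0838 and Ctgf from -0.1931 to 0.1389, and the called upstream and regulator genes ranged from 1 to 3 in place of 4. In the other alternatives these called genes ranged from 3 to 6, with 6 by the methods' t-test. The share of lower genes among all calls was 57.3%, and 46.9% with median scaling, 49.1% with quantile normalization, 43.6% with the methods' t-test and 68.6% without LSC GFP+ replicate 1. The called targets numbered 6 to 8 in every setting. The methods' t-test gave no call for Foxf2 and Ccdc80. The replicate block changed no other call of a member, regulator or target. The cause of these changes was not tested. Slide and scan as a block were not run, since all arrays shared both.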
